A study of Cucumis sativus with 6 samples.

Results

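The genes described here build and remodel the plant cell wall, and they were followed in cucumber (Cucumis sativus) female flower buds. They are the genes of the deposited table whose Swiss-Prot description contains one of 12 wall terms: expansin, xyloglucan, pectin, pectate, polygalacturonase, cellulose synthase, extensin, glucan endo-1,3-beta, endoglucanase, fasciclin, trichome birefringence or UDP-glucuronate 4-epimerase. The terms found 53 of the 1589 genes in the table, in 11 classes; none of the 53 matched extensin. Buds came from Cshec2-/- plants (3 libraries, called Cshec2 below) and from wild type plants (3 libraries), both 7 days before anthesis. CsHEC2 is the gene that gives the mutant its name, and the series title ties it to warts on the fruit and to cytokinin production. The sources used here do not say how the mutation was made, how many lines carry it or how many buds went into a library. The libraries of a genotype are called biological replicates in the design text, and the source plants are not described further, so p-values measure the spread between these libraries.

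A growing plant cell is enclosed in cellulose microfibrils, which are coated and linked by xyloglucan and set in a gel of pectin. Pectin is made with its galacturonic acid residues largely methyl-esterified. Pectinesterases remove the methyl groups, and pectate lyases and polygalacturonases cut the chains. Expansins and xyloglucan endotransglucosylase/hydrolases (XTHs) let the wall yield to turgor, so these families are used as markers of expanding tissue. Outgrowths of the epidermis, such as the spines and warts of cucumber fruit, need local wall growth.

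Of the 53 wall genes, 40 were lower and 9 higher in Cshec2 than in wild type, and 4 did not pass the test. A call here is a limma adjusted p under 0.05, with adjustment over all genes of the table by the Benjamini-Hochberg method. The authors had placed every gene in the table because it differed between the same libraries, and 92.7% of all listed genes passed this test (74.3% lower, 18.4% higher). The wall genes, at 92.5% passing, 75.5% lower and 17.0% higher, lay close to that background, and their median log2 change of -0.77 equalled the -0.77 of all listed genes. The 3 Cshec2 values and the 3 wild type values did not overlap for 47 wall genes (88.7%), against 94.0% of the listed genes. Of these 47, 38 were lower and 9 higher, where 75.7% of the listed genes were lower and 18.3% higher without overlap. Calls are given below as a description of these genes and not as evidence that wall genes differ from others.

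As in the whole table, the lower genes had the larger changes before scaling. Log2 changes of the 40 lower members ran between -3.21 and -0.58, with a median of -0.96, against -0.91 for all lower genes listed. Those of the 9 higher members ran between 0.32 and 1.01, with a median of 0.69, against 0.72 for all higher genes listed. The order does not hold after the median-of-ratios scaling described below, where the higher members lay between 0.62 and 1.72 and 13 of the lower members lay above 0. A fall of at least 1 on the log2 scale was seen in 19 members (35.8%), against 32.0% of the listed genes, and a rise of that size in 1, against 3.08%. Fold changes are on the scale of log2(value + 1), so that the change of a gene with low values comes out too small. Values are the authors' normalised expression signal, whose unit the table does not name, and levels are not compared between genes.

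**Figure D1:**
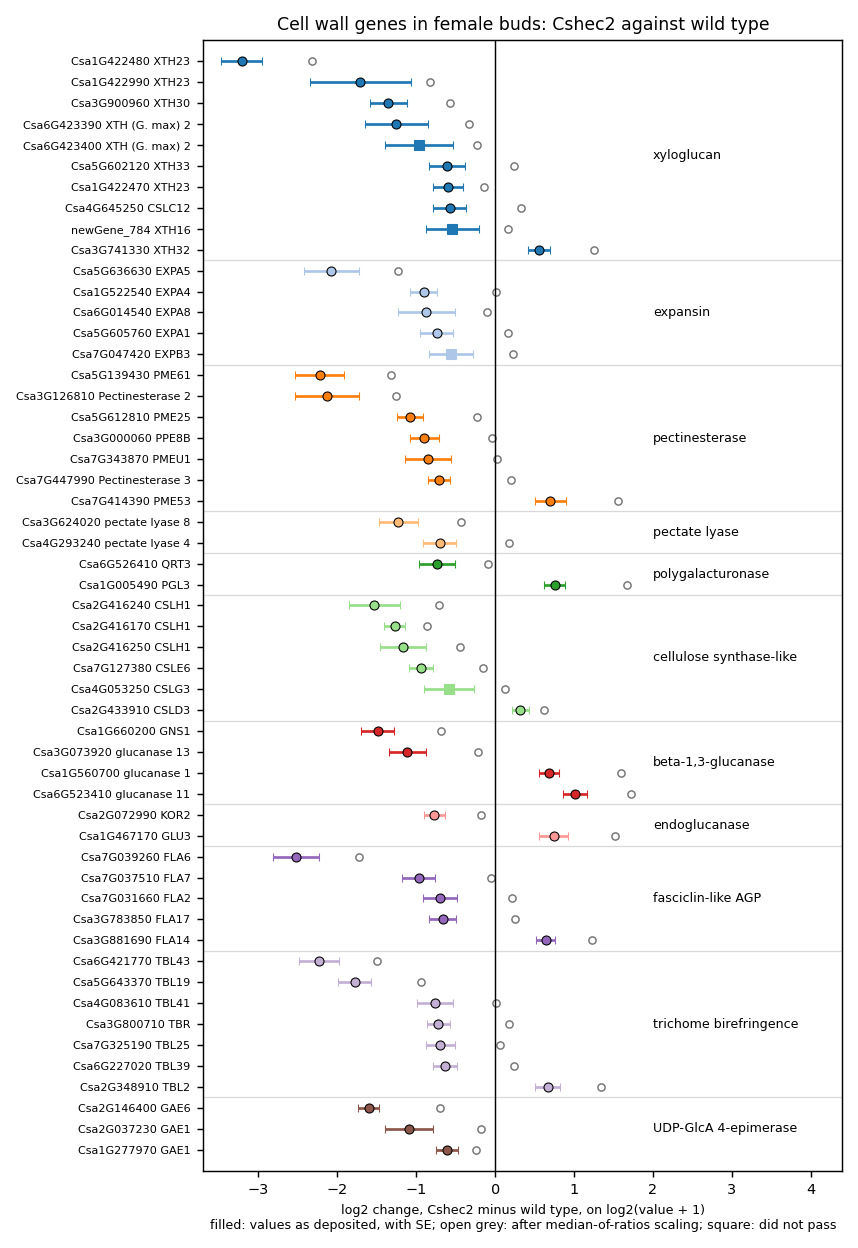
Log2 change of each of the 53 wall genes, Cshec2 minus wild type, on log2(value + 1), with the SE of limma as bars, grouped by class. Filled circles passed and squares did not; open grey circles give the same change after median-of-ratios scaling, which moved 16 of the 44 negative values above 0 and left the 9 positive ones above 0.

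How the libraries are scaled bears on every direction given here. The values of the listed genes summed to between 23592 and 24173 in Cshec2 and to between 41126 and 59342 in wild type. Median-of-ratios scaling, which brings the middle of this preselected table to about 0, moved the median log2 change of all listed genes by 0.74, to -0.02. After it 9 wall genes were higher and 8 lower (47.1% of passing members lower, against 81.6% before). Over all listed genes 43.4% of passing genes were then lower, against 80.1% before. Below 0 after it lay 28 of the 53 wall genes and 822 of the 1589 listed genes. The counts below 0 given for each class stand beside that share. The 8 wall genes that still passed as lower lay well below the table's median. They were Csa1G422480 (XTH23), Csa7G039260 (FLA6), Csa6G421770 (TBL43), Csa5G643370 (TBL19), Csa5G139430 (PME61), Csa2G146400 (GAE6), Csa2G416170 (CSLH1) and Csa1G660200 (GNS1). No other lower call among the 53 passed after that scaling. Without passing, Csa5G636630 (EXPA5) stayed at a log2 change of -1.23 (limma adjusted p = 0.0507). Csa3G126810 (pectinesterase 2) stayed at -1.26 (limma adjusted p = 0.08).

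The table holds few genes that mark a tissue. CRABS CLAW, a carpel regulator, was present as Csa5G606780 with values of 253, 233 and 266 in Cshec2 and 168, 137 and 110 in wild type. No Swiss-Prot description named pollen, anther or tapetum (0 genes). The 4 genes described by phloem or sieve element terms summed to between 28.0 and 32.4 in Cshec2 and between 19.0 and 22.3 in wild type, with 3 higher and 1 lower. The higher call of Csa2G193380 and the lower call of Csa6G495840 were each lost in 4 of the 6 fits without 1 library (limma adjusted p between 0.0508 and 0.0949), and Csa6G495840 turned to a log2 change of 0.14 after median-of-ratios scaling. All 3 genes described by chlorophyll-binding, photosystem or Rubisco terms were lower, as were 74.3% of the listed genes, and they summed to between 109 and 125 in Cshec2 and between 165 and 213 in wild type. After that scaling none of the 3 passed, and their log2 changes were -0.39 for Csa3G664560, 0.01 for Csa1G033310 and 0.25 for Csa2G010330. The part of tissue composition in the wall gene values was not tested. In bulk buds, fewer cells of a type and less RNA per cell cannot be told apart. No description names HECATE (0 genes), so the mutated gene itself was not analysed here.

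Pectin is built from UDP-galacturonate, which UDP-glucuronate 4-epimerases (GAEs) make from UDP-glucuronate. All 3 GAE genes of the table were lower in Cshec2, as were 74.3% of the listed genes. All 3 stayed below 0 after median-of-ratios scaling, as did 822 of the 1589 listed genes, and 1 of the 3 passed. Csa2G146400, described as GAE6 of Arabidopsis, measured 23.0, 23.6 and 26.5 in Cshec2 and 79.6, 70.1 and 78.4 in wild type. Both genotypes were even, and the highest Cshec2 library lay far under the lowest wild type library (log2 change -1.60, SE 0.14, limma adjusted p = 0.000732). Csa2G037230, described as GAE1, measured 66.6, 53.5 and 53.5 in Cshec2 and 123, 81.6 and 190 in wild type (log2 change -1.10, SE 0.30, limma adjusted p = 0.0144). Wild type was uneven, but no library of it came down to the Cshec2 values. A further GAE1-like gene, Csa1G277970, lay at 0.338, 0.407 and 0.389 in Cshec2 and at 0.825, 1.56 and 0.982 in wild type (log2 change -0.61, SE 0.14, limma adjusted p = 0.00801).

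Of the 6 cellulose synthase-like genes, 4 were lower and 1 was higher. After median-of-ratios scaling 4 of the 6 lay below 0 and 1 of them passed as lower. These proteins resemble the catalytic subunits of cellulose synthase, and some members of the family make backbones of wall polysaccharides. The 3 genes described as CSLH1, a rice member of the family, have identifiers close to each other, so reads may have been shared out among them, which was not tested. Csa2G416240 measured 3.97, 4.51 and 6.85 in Cshec2 and 20.5, 21.1 and 9.91 in wild type (log2 change -1.53, SE 0.33, limma adjusted p = 0.00654). Its neighbour by identifier, Csa2G416250, measured 1.47, 2.01 and 3.65 in Cshec2 and 8.47, 5.07 and 5.81 in wild type (log2 change -1.17, SE 0.29, limma adjusted p = 0.00999). In both genes Cshec2 library 3 was the highest of its genotype. The third, Csa2G416170, measured 0.268, 0.346 and 0.209 in Cshec2 and 2.28, 1.61 and 2.41 in wild type. Its log2 change of -1.27 (SE 0.13, limma adjusted p = 0.00095) is held down by the added 1, since its mean in Cshec2 was 0.131 of its mean in wild type. Csa7G127380, described as CSLE6, measured 3.85, 3.55 and 3.60 in Cshec2 and 7.54, 7.41 and 9.01 in wild type, an even difference (log2 change -0.94, SE 0.15, limma adjusted p = 0.00318).

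The higher cellulose synthase-like gene was Csa2G433910, described as CSLD3, which in Arabidopsis is needed for the tip growth of root hairs. It measured 0.753, 0.727 and 0.498 in Cshec2 and 0.329, 0.441 and 0.220 in wild type (log2 change 0.32, SE 0.11, limma adjusted p = 0.0254). The groups did not overlap, but the call is marginal. It was lost without Cshec2 library 1, Cshec2 library 2 or wild type library 3 (limma adjusted p between 0.0687 and 0.0736). Csa4G053250, described as CSLG3, did not pass (limma adjusted p = 0.106). It averaged 2.58 ± 0.233 in Cshec2 and 4.74 ± 2.57 in wild type (SD, n = 3 each), with wild type library 1, at 2.57, inside the Cshec2 range of 2.34 to 2.80. Without that library it passed (limma adjusted p = 0.0132).

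Trichome birefringence-like (TBL) proteins add acetyl groups to wall polysaccharides, and their founding member is named for the trichomes of an Arabidopsis mutant. Of the 7 in the table, 6 were lower and 1 higher in Cshec2, while after median-of-ratios scaling 2 of 7 lay below 0 and both passed. These 2 carried the large changes. Csa6G421770 (TBL43) measured 1.44, 1.79 and 2.56 in Cshec2 and 17.2, 11.3 and 10.2 in wild type (log2 change -2.23, SE 0.25, limma adjusted p = 0.0011). Csa5G643370 (TBL19) measured 4.17, 6.23 and 7.07 in Cshec2 and 24.5, 19.8 and 22.1 in wild type (log2 change -1.78, SE 0.21, limma adjusted p = 0.00118). In both, all 3 wild type libraries lay well above Cshec2. The highest wild type library was 1.69 times the lowest for TBL43 and 1.24 times for TBL19. The founding member itself, Csa3G800710 (TBR), changed less, at 18.9, 16.5 and 18.0 in Cshec2 and 32.6, 27.2 and 30.4 in wild type (log2 change -0.72, SE 0.14, limma adjusted p = 0.00517). Csa4G083610 (TBL41) measured 2.49, 4.29 and 4.14 in Cshec2 and 6.70, 5.65 and 8.01 in wild type (log2 change -0.76, SE 0.23, limma adjusted p = 0.0177). Its call was lost without Cshec2 library 1 (limma adjusted p = 0.0536). Csa7G325190 (TBL25) and Csa6G227020 (TBL39) were lower by 0.70 and 0.63 on the log2 scale. The 1 higher member was Csa2G348910 (TBL2), at 4.69, 3.72 and 3.96 in Cshec2 and 2.46, 2.39 and 1.86 in wild type (log2 change 0.66, SE 0.16, limma adjusted p = 0.00928).

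Xyloglucan is the substrate of 9 of the 10 genes in the next class, the XTHs, which cut xyloglucan chains and join the ends to others. Of these 9, 6 were lower, 1 was higher and 2 did not pass. The tenth, Csa4G645250, is described as CSLC12, which makes the glucan backbone of xyloglucan. In the whole class 7 of 10 were lower, and after median-of-ratios scaling 6 of 10 lay below 0 and 1 passed. Csa1G422480, described as XTH23, had the largest change of all 53 wall genes. It measured 7.15, 9.02 and 10.4 in Cshec2 and 66.8, 84.5 and 126 in wild type (log2 change -3.21, SE 0.26, limma adjusted p = 0.000656). Even the lowest wild type library lay far above the highest Cshec2 library. Csa3G900960, described as XTH30, measured 2.26, 3.73 and 4.02 in Cshec2 and 11.8, 8.04 and 10.2 in wild type (log2 change -1.35, SE 0.23, limma adjusted p = 0.0036).

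Most other XTH genes were uneven within wild type. Csa1G422990, also described as XTH23, measured 17.4, 9.52 and 10.4 in Cshec2 and 86.4, 13.7 and 59.0 in wild type, so that wild type library 2 lay under the highest Cshec2 library. Its log2 change was -1.71 (SE 0.64, limma adjusted p = 0.0372), and the call was lost without any of the Cshec2 libraries or without wild type library 1 or 3 (limma adjusted p between 0.0567 and 0.098). Csa6G423390, described as a soybean XTH, measured 73.9, 47.3 and 53.6 in Cshec2 and 249, 82.0 and 127 in wild type (log2 change -1.25, SE 0.40, limma adjusted p = 0.0225). These groups did not overlap, but its call was lost without Cshec2 library 2 or 3 (limma adjusted p of 0.0642 to 0.0714). Its neighbour by identifier, Csa6G423400, carries the same description and did not pass (limma adjusted p = 0.0652). It averaged 2.87 ± 1.13 in Cshec2 and 7.17 ± 4.32 in wild type (SD, n = 3 each), and it passed without wild type library 2 (limma adjusted p = 0.0168). Cucumis_sativus_newGene_784, described as XTH16, averaged 2.69 ± 0.614 in Cshec2 and 4.70 ± 2.68 in wild type and did not pass either (limma adjusted p = 0.148). In 6 of the 9 XTH genes the lowest wild type library was library 2, against 551 of the 1589 listed genes. In 6 of the 9 the highest Cshec2 library was library 1, against 518 of the listed genes. These counts are a description, because XTH genes with the same description may share reads.

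The 3 remaining lower members of this class had log2 changes between -0.61 and -0.58. Csa1G422470, the identifier next to Csa1G422480 and also described as XTH23, averaged 0.654 ± 0.205 in Cshec2 and 1.53 ± 0.585 in wild type (SD, n = 3 each), a log2 change of -0.60. Here too the added 1 holds the change down, since its mean in Cshec2 was 0.428 of its mean in wild type. It lost its call without Cshec2 library 2 or 3, with limma adjusted p of 0.0511 to 0.0731. Csa5G602120 (XTH33) and Csa4G645250 (CSLC12) were lower by 0.61 and 0.58 on the log2 scale and turned to 0.24 and 0.32 after median-of-ratios scaling. The call of Csa5G602120 was lost without Cshec2 library 2 or 3 or wild type library 1 or 2 (limma adjusted p between 0.0775 and 0.126). That of Csa4G645250 was lost without any single Cshec2 library (limma adjusted p between 0.0607 and 0.0986). The 1 XTH gene that rose was Csa3G741330, described as XTH32. It measured 3.82, 4.31 and 3.85 in Cshec2 and 2.13, 2.58 and 2.48 in wild type, with both groups even (log2 change 0.56, SE 0.14, limma adjusted p = 0.0117). The 3 XTH23-like genes share a Swiss-Prot description, as do the pair of soybean-like genes. Reads may have been shared out within each set, which was not tested.

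Expansins loosen the bonds between cellulose and its coating without cutting them. Of the 5 expansin genes, 4 were lower, 0 were higher and 1 did not pass, and after median-of-ratios scaling 2 of 5 lay below 0 and 0 passed. Csa5G636630 (EXPA5) stood apart, at 4.52, 5.62 and 7.76 in Cshec2 and 41.3, 31.5 and 16.5 in wild type (log2 change -2.08, SE 0.35, limma adjusted p = 0.00333). Csa1G522540 (EXPA4) measured 85.0, 84.1 and 91.2 in Cshec2 and 204, 145 and 148 in wild type (log2 change -0.91, SE 0.17, limma adjusted p = 0.00483). Csa5G605760 (EXPA1) measured 23.2, 26.7 and 25.8 in Cshec2 and 55.9, 42.3 and 33.1 in wild type (log2 change -0.74, SE 0.21, limma adjusted p = 0.0151). The groups of these 3 genes did not overlap, although the call of Csa5G605760 was lost without Cshec2 library 1 (limma adjusted p = 0.053). Csa6G014540 (EXPA8) did overlap, at 2.84, 4.62 and 4.12 in Cshec2 and 11.0, 10.1 and 4.07 in wild type. Its call (log2 change -0.87, SE 0.36, limma adjusted p = 0.0495) was lost without any of the Cshec2 libraries or without wild type library 1 or 2 (limma adjusted p between 0.0741 and 0.148). Csa7G047420 (EXPB3), a beta-expansin, averaged 4.94 ± 0.563 in Cshec2 and 8.11 ± 3.07 in wild type (SD, n = 3 each) and did not pass (limma adjusted p = 0.0906). It passed without wild type library 3 (limma adjusted p = 0.00543). In all 5 expansins wild type library 1 was the highest of its genotype, against 613 of the 1589 listed genes. In 4 of 5 wild type library 3 was the lowest, against 437 of the listed genes.

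The 2 endoglucanases, which act on beta-1,4-glucan, went in opposite directions. Csa2G072990, described as KOR2, a relative of the KORRIGAN enzyme of cellulose synthesis, measured 1.13, 1.23 and 1.13 in Cshec2 and 2.52, 2.38 and 3.21 in wild type (log2 change -0.77, SE 0.14, limma adjusted p = 0.00388). Csa1G467170, described as the rice endoglucanase GLU3, measured 5.92, 7.20 and 8.57 in Cshec2 and 4.02, 3.40 and 4.24 in wild type (log2 change 0.74, SE 0.18, limma adjusted p = 0.00989). Neither pair of groups overlapped.

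Of the 7 pectinesterase genes, 6 were lower and 1 higher, where 74.3% of all listed genes were lower and 18.4% higher. After median-of-ratios scaling 4 of 7 lay below 0, of which 1 passed. The 6 lower genes carry, in the table's Pfam column, a plant invertase/pectin methylesterase inhibitor domain beside the pectinesterase domain. The 1 higher gene carries the pectinesterase domain without the inhibitor domain. As only 1 gene lacks the inhibitor domain, this describes single genes and is no contrast between domain types. Csa7G343870 and Csa7G447990, which carry the inhibitor domain, turned to log2 changes of 0.029 and 0.195 after median-of-ratios scaling. Csa5G139430 (PME61) measured 11.0, 16.0 and 23.5 in Cshec2 and 102, 82.0 and 58.6 in wild type (log2 change -2.22, SE 0.31, limma adjusted p = 0.00195). Csa3G126810, described as pectinesterase 2 of Citrus, measured 8.65, 9.03 and 12.5 in Cshec2 and 72.4, 59.9 and 23.7 in wild type (log2 change -2.13, SE 0.41, limma adjusted p = 0.00483). In both genes Cshec2 library 3 and wild type library 3 came closest to each other, with no overlap. Csa5G612810 (PME25) measured 6.25, 7.72 and 7.42 in Cshec2 and 18.8, 14.4 and 15.5 in wild type (log2 change -1.08, SE 0.17, limma adjusted p = 0.00273). Csa3G000060, described as PPE8B of peach, measured 9.04, 9.33 and 9.45 in Cshec2 and 23.2, 16.1 and 15.9 in wild type (log2 change -0.90, SE 0.18, limma adjusted p = 0.00583). Csa7G343870 (PMEU1) and Csa7G447990 were lower by 0.85 and 0.72. The first owed its mean to wild type library 3, at 39.1 against 19.4 and 17.9 in libraries 1 and 2, and lost its call without any single Cshec2 library (limma adjusted p between 0.0696 and 0.0759). The higher gene, Csa7G414390 (PME53), measured 19.2, 13.9 and 14.8 in Cshec2 and 7.98, 9.09 and 11.3 in wild type (log2 change 0.70, SE 0.19, limma adjusted p = 0.0144). Its call was lost without Cshec2 library 1, the highest of its genotype (limma adjusted p = 0.0516).

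Enzymes that cut de-esterified pectin were few. Both pectate lyase genes were lower in Cshec2, with 1 of 2 below 0 and 0 passing after median-of-ratios scaling. Csa3G624020, described as pectate lyase 8, measured 3.32, 4.15 and 4.85 in Cshec2 and 13.8, 12.1 and 7.66 in wild type (log2 change -1.23, SE 0.25, limma adjusted p = 0.00541). Csa4G293240, described as pectate lyase 4, measured 12.6, 13.6 and 13.5 in Cshec2 and 17.2, 21.5 and 29.5 in wild type (log2 change -0.70, SE 0.21, limma adjusted p = 0.0178). The call of Csa4G293240 was lost without any single Cshec2 library (limma adjusted p between 0.052 and 0.0568), which left 1 of the 2 pectate lyases lower in each of those fits. Of the 2 genes in the polygalacturonase class, Csa6G526410 is described as QRT3, an Arabidopsis enzyme that separates pollen grains from each other. It measured 1.48, 1.89 and 1.61 in Cshec2 and 5.07, 3.17 and 2.43 in wild type (log2 change -0.74, SE 0.23, limma adjusted p = 0.0201), and lost its call without Cshec2 library 1 or 3 (limma adjusted p of 0.057 to 0.0636). Csa1G005490, described as PGL3, carries a BURP domain and resembles a non-catalytic polygalacturonase subunit, so it is no pectin-cutting enzyme by its description. It measured 74.2, 70.6 and 74.9 in Cshec2 and 45.4, 43.8 and 40.2 in wild type, among the most even of the higher genes (log2 change 0.75, SE 0.13, limma adjusted p = 0.00355).

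**Figure D2:**
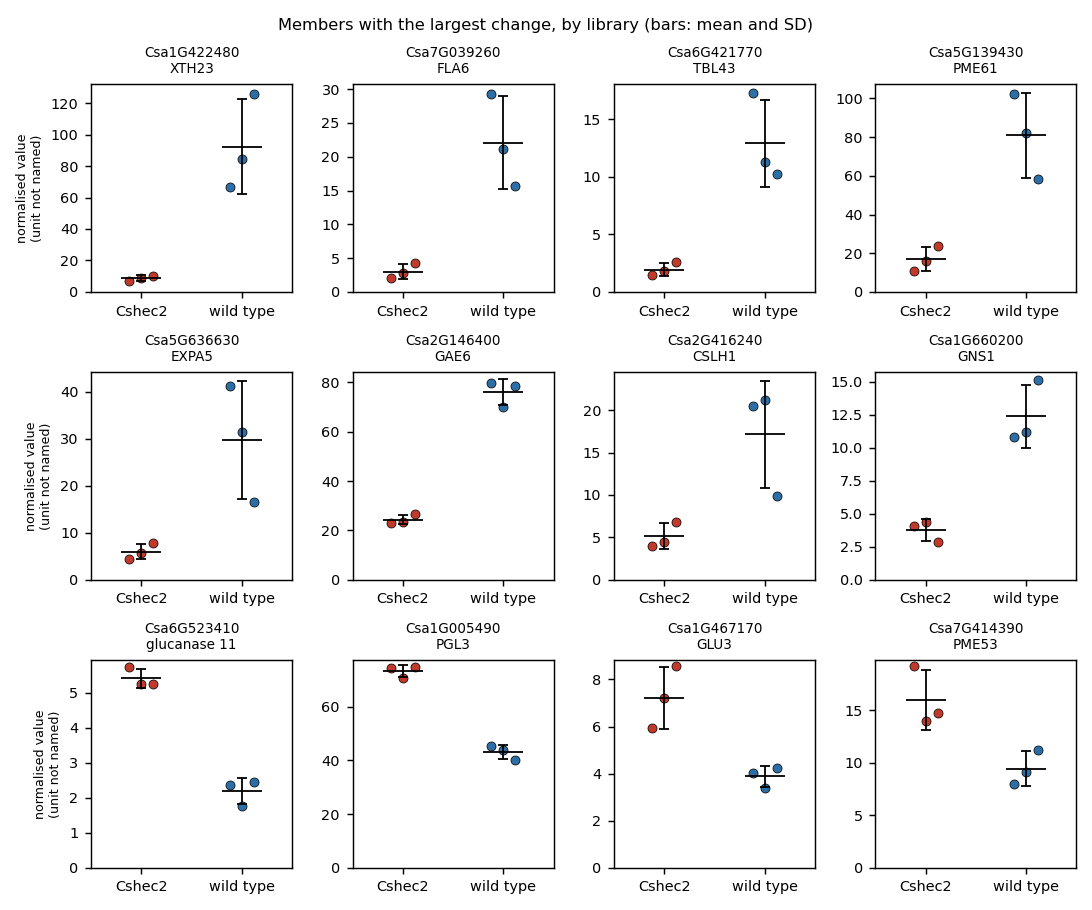
Normalised values of 12 wall genes in each library (points), with the mean and SD of 3 libraries per genotype, Cshec2 left of wild type; axes start at 0. The upper 8 panels show, for the 8 classes with the largest falls, the most strongly lower gene and the lower 4 panels the most strongly higher genes, all ranked on log2(value + 1), which ranks genes of low value such as Csa2G416170 and Csa2G433910 lower than the ratio of means does; in each panel the 3 Cshec2 points lie clear of the 3 wild type points.

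Fasciclin-like arabinogalactan proteins (FLAs) are glycoproteins at the outer face of the plasma membrane and in the wall. Of the 5 FLA genes, 4 were lower and 1 was higher, and 2 of 5 lay below 0 after median-of-ratios scaling, with 1 passing. Csa7G039260 (FLA6) had the second largest change of the 53 wall genes on log2(value + 1), and the third largest after Csa2G416170 by the ratio of means, at 2.05, 2.74 and 4.22 in Cshec2 and 29.4, 21.1 and 15.7 in wild type (log2 change -2.52, SE 0.29, limma adjusted p = 0.00115). Csa7G037510 (FLA7) measured 55.4, 60.0 and 66.1 in Cshec2 and 156, 118 and 91.9 in wild type (log2 change -0.97, SE 0.21, limma adjusted p = 0.00726). In both, Cshec2 library 3 was the highest of its genotype and wild type library 3 the lowest. Csa7G031660 (FLA2) measured 42.6, 48.8 and 47.2 in Cshec2 and 99.6, 74.2 and 58.5 in wild type (log2 change -0.70, SE 0.21, limma adjusted p = 0.0185). It lost its call without any single Cshec2 library (limma adjusted p between 0.0503 and 0.0628). Csa3G783850 (FLA17) measured 52.9, 49.5 and 50.4 in Cshec2 and 100.3, 76.1 and 70.7 in wild type (log2 change -0.67, SE 0.17, limma adjusted p = 0.0109). The higher member, Csa3G881690 (FLA14), was even in both genotypes, at 2.64, 2.51 and 2.68 in Cshec2 and 1.33, 1.38 and 1.24 in wild type (log2 change 0.64, SE 0.12, limma adjusted p = 0.00431).

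Glucan endo-1,3-beta-glucosidases cut callose, the glucan laid down at plasmodesmata, cell plates and wounds. Of the 4 genes with that description, 2 were lower and 2 higher, and these directions were the same after median-of-ratios scaling, where 1 of the lower and both of the higher genes passed. Csa1G660200, described as a basic isoform of peach (GNS1), measured 4.06, 4.39 and 2.84 in Cshec2 and 10.9, 11.2 and 15.1 in wild type (log2 change -1.49, SE 0.21, limma adjusted p = 0.00201). Csa3G073920, described as isoform 13, measured 13.6, 13.4 and 20.8 in Cshec2 and 44.5, 32.1 and 29.9 in wild type (log2 change -1.11, SE 0.24, limma adjusted p = 0.00637). Against these, Csa6G523410, described as isoform 11, had the largest rise of all wall genes. It measured 5.74, 5.26 and 5.26 in Cshec2 and 2.36, 1.78 and 2.45 in wild type (log2 change 1.01, SE 0.16, limma adjusted p = 0.00268). Csa1G560700, described as isoform 1, measured 71.2, 72.2 and 70.3 in Cshec2 and 41.3, 43.8 and 46.7 in wild type (log2 change 0.69, SE 0.13, limma adjusted p = 0.00439). Its Pfam entry is an X8 domain, a carbohydrate-binding module, without the family 17 hydrolase domain that the other 3 carry.

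**Figure D3:**
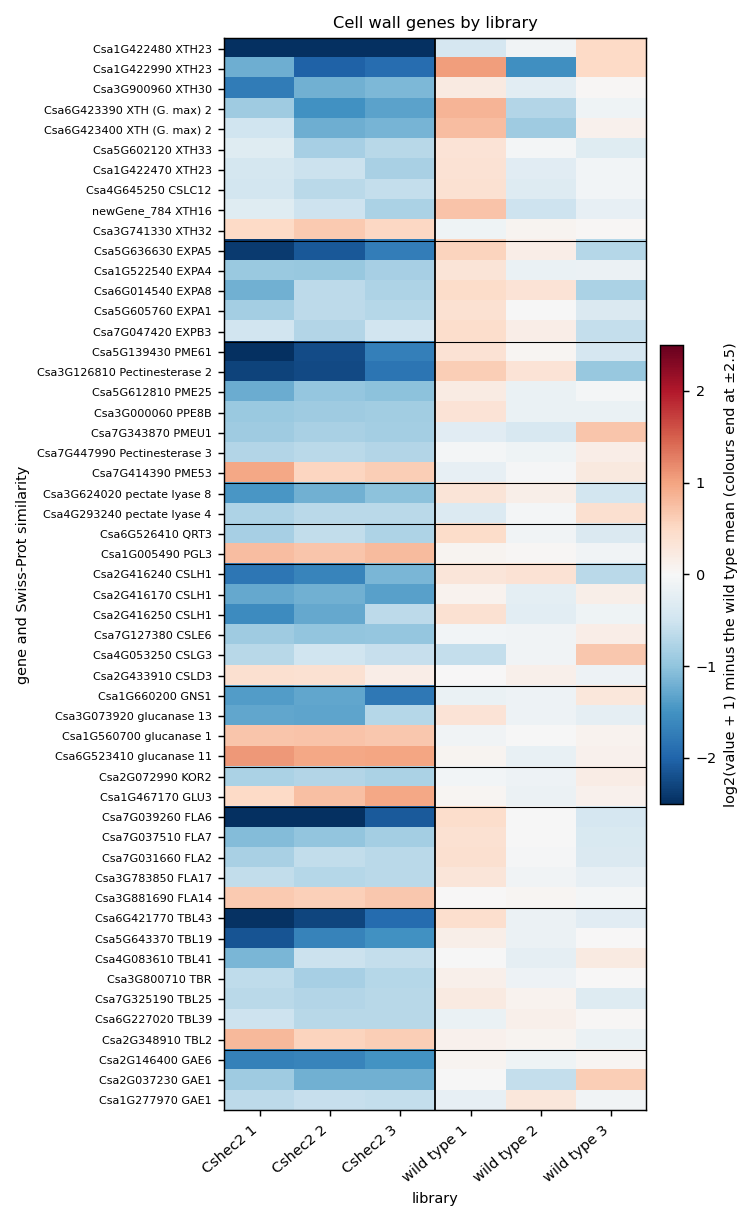
The 53 wall genes (down the page, by class) in the 3 Cshec2 and the 3 wild type libraries (columns); colour is log2(value + 1) minus the gene's wild type mean, with colours ending at 2.5 on either side. Most Cshec2 cells are blue before median-of-ratios scaling, which would turn 16 genes above 0; the 9 higher genes show as red, and wild type library 1 is the highest wild type library for 32 genes.

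The wall genes were unevenly spread over the wild type libraries. Wild type library 1 was the highest of its genotype for 32 of 53 members (60.4%), against 38.6% of all listed genes. Library 3 was the highest for 15 members (28.3%), against 51.6% of all listed genes. The SD of the log2 values was larger in wild type for 42 members (79.2%), close to the 78.5% of all listed genes. Its median over the members was 0.14 in Cshec2 and 0.30 in wild type. By class, the median difference of wild type library 3 from library 1 on the log2 scale was -1.03 for expansins, -0.76 for FLAs and -0.50 for xyloglucan genes. For GAEs it was 0.12, and for all listed genes 0.08. What sets the wild type libraries apart from each other was not tested.

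Among the 19 members with a fall of 1 or more (log2), Cshec2 library 3 was the highest of its genotype in 13 and wild type library 1 the highest of its genotype in 14. Both held in 11 (57.9%), against 26.3% of the 509 listed genes with such a fall. EXPA5, FLA6, TBL43, PME61 and pectinesterase 2 are among these 11. The 2 shares are given as a description, because genes of the same libraries are not independent. The calls of these 5 genes were kept in each fit that left out 1 library, with limma adjusted p of at most 0.0218.

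In the authors' deposited table all 53 members carry the direction of their library means. The table's log2 fold change was closer to 0 than the log2 ratio of the means for 45 of the 53, by a median gap of 0.12 over all members. The gap was largest for Csa1G422990, listed at -0.88 in the authors' deposited table where the ratio of means gives -2.09. For that gene the highest wild type library was 6.29 times the lowest. Csa2G146400 (GAE6), whose wild type libraries differed by 1.14 times, is listed in the authors' deposited table at -1.65, and its ratio of means gives -1.64. Other genes went the other way. Csa2G416170 had a gap of 0.47 with wild type libraries differing by 1.5 times. Cucumis_sativus_newGene_784 had a gap of 0.05 with a difference of 2.86 times. Whether the wild type spread bears on the gap was not tested.

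**Figure D4:**
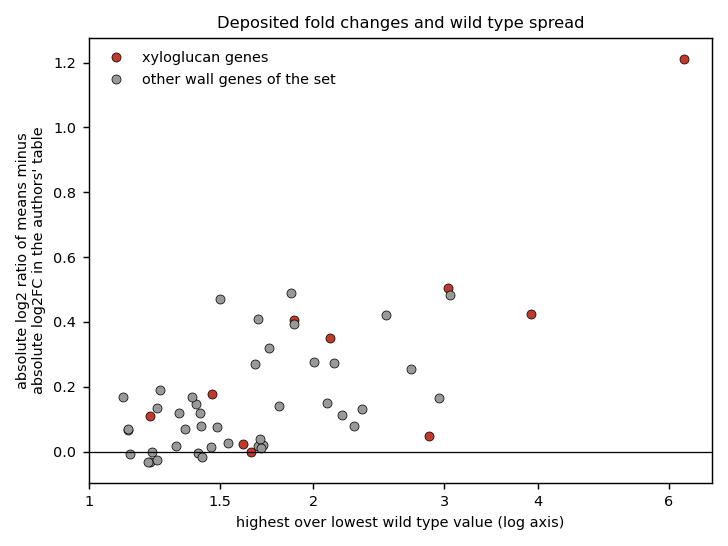
For each of the 53 wall genes, the highest over the lowest wild type value (x, log axis) against the absolute log2 ratio of the genotype means minus the absolute log2 fold change in the authors' deposited table (y). Points above 0 are listed with a smaller change than their means give; Csa1G422990, at 6.29 on x and 1.21 on y, stands apart.

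A further 18 listed genes belong to wall pathways outside the 12 terms. The test called 14 of them lower and 3 higher and left 1 uncalled, where 74.3% of all listed genes were lower and 18.4% higher. The median log2 change of the 18 was -0.79, against -0.77 for all listed genes. After median-of-ratios scaling 3 were higher and 2 lower, against 18.4% and 14.2% of all listed genes. The largest falls were in 2 structural and side-chain genes and a xylosidase. Csa7G009730, described as proline-rich protein 4, a structural wall protein, measured 12.8, 27.6 and 31.1 in Cshec2 and 142, 85.4 and 79.8 in wild type (log2 change -2.10, SE 0.38, limma adjusted p = 0.00401). Csa1G587980, described as a beta-galactosidase, measured 5.27, 7.34 and 8.61 in Cshec2 and 35.1, 30.8 and 32.6 in wild type (log2 change -2.09, SE 0.19, limma adjusted p = 0.000814). Csa6G309980, described as BXL1, which trims xylose and arabinose from wall polymers, measured 5.50, 6.97 and 7.08 in Cshec2 and 19.6, 26.1 and 39.4 in wild type (log2 change -1.92, SE 0.26, limma adjusted p = 0.00181). The last 2 were the genes that still passed as lower after that scaling. All 4 genes described as galacturonosyltransferases or like them were lower, as were 74.3% of the listed genes. Their log2 changes lay between -1.33 and -0.52, and 3 of the 4 stayed below 0 after that scaling. The family has members that polymerise pectin from the product of GAEs, but Csa3G854760 and Csa6G487700 are described only as galacturonosyltransferase-like. The smallest fall, of Csa7G024120, lost its call without any single Cshec2 library (limma adjusted p between 0.0534 and 0.0835).

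The 3 higher genes of that list act on mannan or lignin. Csa6G405340, described as the mannanase MAN6, measured 5.49, 5.62 and 6.69 in Cshec2 and 3.27, 2.89 and 3.81 in wild type (log2 change 0.68, SE 0.17, limma adjusted p = 0.00944). Csa3G748790, described as CSLA9, a glucomannan synthase, measured 0.864, 1.07 and 1.14 in Cshec2 and 0.437, 0.341 and 0.697 in wild type (log2 change 0.45, SE 0.12, limma adjusted p = 0.0138). Csa1G085370, described as the lignin-polymerising laccase LAC17, measured 3.93, 3.96 and 2.79 in Cshec2 and 2.46, 1.62 and 2.10 in wild type (log2 change 0.57, SE 0.18, limma adjusted p = 0.0228). In none of these 3 genes did the groups overlap, although the call of Csa1G085370 was lost without Cshec2 library 1 or 2 or wild type library 2 (limma adjusted p between 0.0701 and 0.0746). The uncalled gene, Csa2G381890, described as DC2.15, averaged 211 ± 23.1 in Cshec2 and 363 ± 157 in wild type (SD, n = 3 each; limma adjusted p = 0.093).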

How the data were processed

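One deposited table was used, which lists genes that differ between the genotypes, per the file headers. The submitters' processing notes list HISAT2, HISAT and DESeq2 with no role, and the genome build is not given in the sources used here. The deposited values per library are a normalised expression signal of unnamed unit. The low values of a library show no common step that would give whole reads, and no totals are in the table, so depth is unknown. The deposited FDR is an adjusted p-value of the authors (largest 0.05), and their log2 fold change has a smallest size of 0.585. The RefSeq gene table shares 0 identifiers with the deposited one, so coordinates and sequences are not shown, and gene names are similarities stated in the table.

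Here limma 3.58.1 (R 4.3.3) was fitted with a variance trend to log2(value + 1) of all 1589 genes, without a filter or a replicate block, and p-values were adjusted by Benjamini-Hochberg over the table (threshold 0.05). The fit was tested on simulated data in which most genes were unchanged and changes went in both directions. That setting differs from this preselected table, so the test does not bear on the calls given here. Members, gene lists and tests were chosen with earlier results of these data known. Within each class, library values are given for up to 4 lower and 4 higher passing members by size of change, and for up to 3 in each direction of the other wall genes. TBL2, GLU3 and similar symbols are those of the matched Swiss-Prot entries. Alternatives were median-of-ratios scaling, no trend, each library left out, a block for the replicate number, a pseudocount of 0.1 or 0.5, a mean of at least 1, a threshold of 0.01, a log2 change of at least 1, and matching by NR description or without kinases and inhibitors. Figures used matplotlib 3.10.9.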

Additional observations from a re-analysis of the deposited data

How the results depend on the processing

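Without one library at a time, the wall genes passing as lower numbered 30 to 40 and as higher 7 to 9, and over all listed genes 823 to 1236 and 263 to 289. The lower counts of 30 to 31 came from leaving out 1 of the Cshec2 libraries. By class the leave-one-out ranges for lower genes were 2 to 7 for xyloglucan genes, 2 to 5 for expansins, 5 to 6 for pectinesterases, 1 to 2 for pectate lyases, 0 to 1 for polygalacturonases, 4 to 5 for cellulose synthase-like genes, 3 to 4 for FLAs and 5 to 6 for TBL genes. Lower xyloglucan genes numbered 2 without Cshec2 library 2 or 3, and lower expansins 2 without Cshec2 library 1. For higher genes the ranges were 0 to 1 for pectinesterases and for cellulose synthase-like genes. The single lower and higher endoglucanases, the 2 lower and 2 higher glucanases, and the 3 lower GAEs passed in each such fit. The other wall genes ranged from 12 to 15 lower and from 2 to 3 higher.

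After median-of-ratios scaling the lower wall genes numbered 8 (225 over all listed genes). By class they were 1 for xyloglucan genes, 0 for expansins, 1 for pectinesterases, 0 for pectate lyases, 0 for polygalacturonases, 1 for cellulose synthase-like genes, 1 for glucanases, 0 for endoglucanases, 1 for FLAs, 2 for TBL genes, 1 for GAEs and 2 for the other wall genes. That scaling centres a table of mostly lower genes, so fewer lower calls follow from how it is built. It turned the sign of 16 members, none of which passed in the new direction: Csa5G602120 (log2 change 0.24), Csa4G645250 (0.32), Cucumis_sativus_newGene_784 (0.17), Csa1G522540 (0.015), Csa5G605760 (0.16), Csa7G047420 (0.23), Csa7G343870 (0.029), Csa7G447990 (0.20), Csa4G293240 (0.18), Csa4G053250 (0.13), Csa7G031660 (0.21), Csa3G783850 (0.25), Csa4G083610 (0.009), Csa3G800710 (0.17), Csa7G325190 (0.065) and Csa6G227020 (0.24).

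Without the variance trend, and with a mean of at least 1, 0 cellulose synthase-like genes were higher, since Csa2G433910 lost its call (limma adjusted p = 0.0635) or was filtered out. An adjusted p of 0.01 left 25 lower members, and a log2 change of at least 1 left 19 lower and 1 higher. Pseudocounts of 0.1 and 0.5 changed no member's call. With the replicate number as a block, 40 members were lower and 9 higher, with Csa6G014540 lost (limma adjusted p = 0.0593) and Csa6G423400 gained (limma adjusted p = 0.0267). The labels state no pairing of libraries. Deviations of same-numbered libraries correlated at -0.09, -0.04 and -0.18 over genes, and those of differently numbered ones at -0.07 to 0.16. Each genotype was centred on its own 3 libraries, so these values cannot decide whether libraries were collected in pairs. Depth is unknown, and 3 libraries per genotype limit the precision.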

Other observations

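Extensins, hydroxyproline-rich proteins that crosslink in the wall, had no Swiss-Prot match, but the NR description named them. Searching the NR descriptions with the same terms gave 53 genes, of which 6 are not among the 53 wall genes above, and in turn 6 of those wall genes had no NR match. All 4 genes that this search named as extensins or extensin-like were lower in Cshec2, as were 74.3% of the listed genes. Only Csa7G312940 carries an extensin-like region in its Pfam entry. Csa4G017050 carries other domains, and Csa5G571580 and Csa5G576580 have no Pfam entry, so their names rest on the NR description. After median-of-ratios scaling 3 of the 4 passed as lower, against 14.2% of the listed genes. Csa5G571580, described as leucine-rich repeat extensin-like protein 6, measured 2.04, 2.39 and 2.65 in Cshec2 and 12.9, 10.9 and 8.04 in wild type (log2 change -1.78, SE 0.21, limma adjusted p = 0.00117). Csa5G576580, described as leucine-rich repeat extensin-like protein 5, measured 0.947, 1.88 and 1.46 in Cshec2 and 6.88, 5.30 and 5.93 in wild type (log2 change -1.55, SE 0.20, limma adjusted p = 0.00141). Csa7G312940, described as extensin-3, averaged 0.332 ± 0.276 in Cshec2 and 2.56 ± 1.01 in wild type (SD, n = 3 each). Csa4G017050, described as extensin-2-like, averaged 12.3 ± 2.14 in Cshec2 and 23.1 ± 9.24 in wild type, and turned to a log2 change of 0.07 after that scaling. Its call (limma adjusted p = 0.0387) was lost in 5 of the 6 fits without 1 library, all but that without wild type library 1 (limma adjusted p between 0.0706 and 0.121).

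The other NR matches were a gene described as exopolygalacturonase-like and one described as endoglucanase 4-like, neither with a Swiss-Prot match. Csa7G037590, the gene described as exopolygalacturonase-like, measured 33.8, 35.6 and 36.5 in Cshec2 and 152, 161 and 272 in wild type (log2 change -2.38, SE 0.24, limma adjusted p = 0.000878). Its Pfam entry is a glycine rich protein family and not a polygalacturonase domain, so the NR description alone names it as such an enzyme. Cucumis_sativus_newGene_1662, described as endoglucanase 4-like, measured 1.54, 2.75 and 2.19 in Cshec2 and 0.336, 0.0918 and 0.494 in wild type (log2 change 1.27, SE 0.18, limma adjusted p = 0.00226). It has no Pfam entry, so its name too rests on the NR description. Its rise was larger than that of any of the 9 higher wall genes above. These 6 genes were named after their values were seen.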
